A study of Mus musculus with 13 samples.

Results

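De novo lipogenesis, the synthesis of fatty acids from citrate and acetate, was examined in parametrial white adipose tissue (pmWAT) through 10 genes: the citrate carrier *Slc25a1*, *Acly*, *Acss2*, *Aacs*, *Acaca*, *Acacb*, *Fasn*, *Me1*, *Thrsp* and *Elovl6*. They were taken by symbol from the deposited count table, and all 10 were found among its 33618 genes, each under 1 Ensembl identifier. Whole pmWAT from female mice was sequenced as mRNA, 1 library per mouse, with 7 libraries labelled fl/fl and 6 labelled iADKO. The iADKO label stands for Lmna fl/fl mice that also carry 1 copy of Adipoq-CreERT2, a tamoxifen-inducible Cre driven by the adipocyte adiponectin promoter, which removes exons 10 and 11 of *Lmna*, the gene of lamin A/C. The fl/fl mice carry the same floxed alleles without Cre. Mice of both labels received tamoxifen at 50 mg/kg on 5 days at 12 to 14 weeks of age and were dissected 2 weeks posttamoxifen, so tamoxifen was common to both labels and Cre was not.

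In this pathway, citrate leaves the mitochondrion through the citrate carrier and is cleaved to cytosolic acetyl-CoA, which is carboxylated to malonyl-CoA and then built into palmitate by fatty acid synthase with electrons from NADPH. Acetate and acetoacetate can be activated in the cytosol to feed the same pool. The genes are transcribed together in fed adipose tissue and liver under SREBP-1c, which insulin activates, and ChREBP, which responds to glucose.

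Each library held between 18854223 and 19776491 counts on genes, and 1 of the 10 genes had from 1255 to 387719 counts in a library, so counting error was small beside the spread between mice. Levels are given as TMM-normalized CPM from edgeR, a count scaled to a common library size, and 16753 genes with enough counts were tested. *Lmna* itself was not lower where the label was iADKO (log2 fold change 0.19, standard error [SE] 0.0789, edgeR adjusted p = 0.0785). Its count covers the whole gene, so the floxed exons cannot be read apart, and each direction below rests on the labels. The adipocyte markers were present in every library, with a sum over 8 genes of 17511 to 26075 CPM in fl/fl and 10450.0 to 18913 CPM in iADKO. Fl/fl replicate 5 stood apart from its group with the lowest adipocyte sum and the highest macrophage sum (2375 CPM over 9 genes), and iADKO replicate 6 with the highest adipocyte and the lowest macrophage sum of its own (1650.4 CPM). In the 10 genes and in these markers, both lie toward the libraries of the other label, and whether their labels or dissection are as recorded was not tested. Both are kept in every mean, SD and overlap count unless said otherwise, and some of the results that change without them are also given without them.

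All 10 genes fell in iADKO pmWAT at an adjusted p under 0.05 (edgeR's quasi-likelihood test, Benjamini-Hochberg over all tested genes). Of all tested genes, 16.3% were called lower and 14.1% higher. The median log2 fold change was -1.74 for the 10 genes and 0.03 for all tested genes. The decrease was largest for *Elovl6*, at 16.5% of the fl/fl level, and smallest for *Aacs*, at 45.1%. Together, the 10 genes held 2.61% ± 0.791 (SD, n = 7) of all counts in fl/fl and 0.827% ± 0.172 (SD, n = 6) in iADKO. In fl/fl this share ran from 1.02% to 3.28%, and in iADKO from 0.638% to 1.12%. The groups overlapped only where fl/fl replicate 5 (1.02%) lay below iADKO replicate 6 (1.12%).

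**Figure D1:**
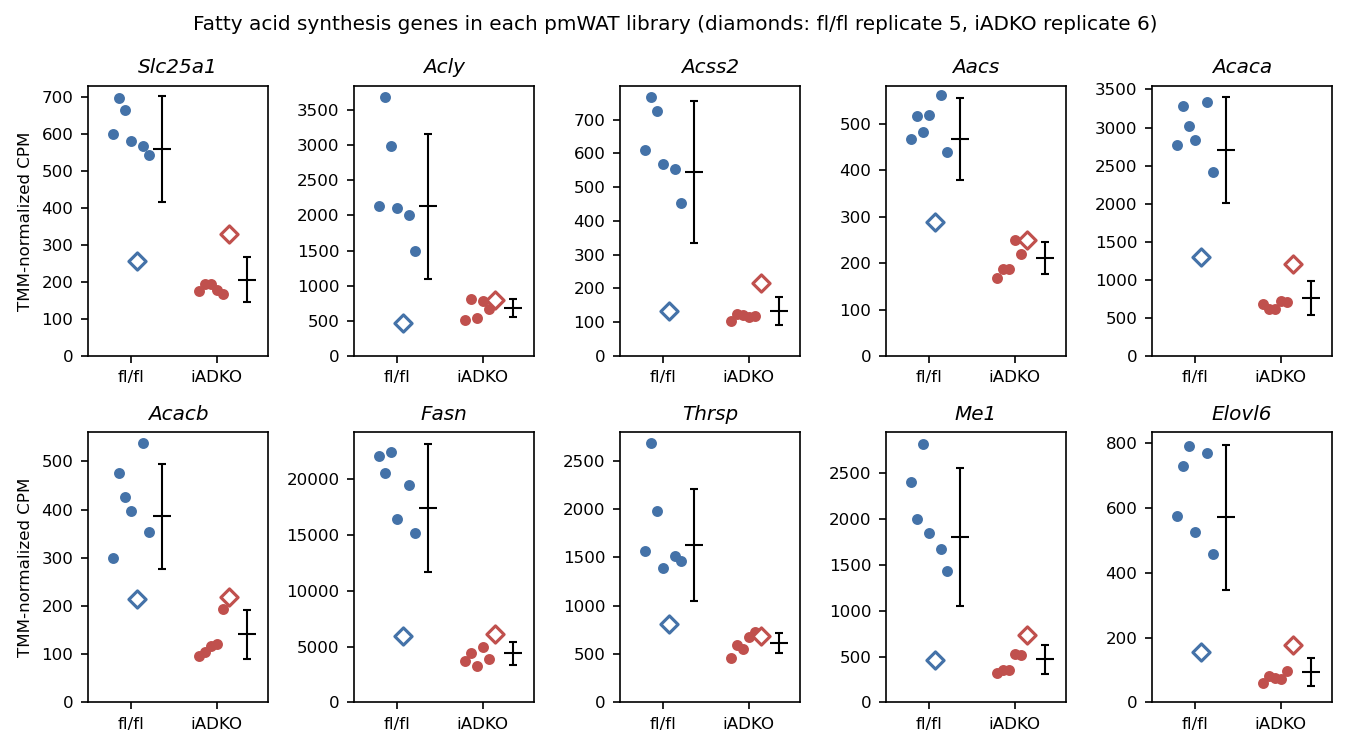
TMM-normalized CPM (linear axes from 0) of the 10 genes in the 7 fl/fl (blue) and 6 iADKO (red) libraries, 1 point per mouse; black bars are the mean ± SD of each group. Open diamonds mark fl/fl replicate 5, the lowest fl/fl library in 10 of 10 genes, and iADKO replicate 6, the highest iADKO library in 8 of 10.

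Every iADKO library lay below every fl/fl library in 3 of the 10 genes (*Aacs*, *Acaca* and *Thrsp*), and in 3.93% of all tested genes. Fl/fl replicate 5 was at or below the highest iADKO library in the other 7, and the remaining 6 fl/fl libraries lay above all 6 iADKO libraries in 10 of 10. Without fl/fl replicate 5 the groups were apart in all 10 genes (10.1% of all tested genes), and without iADKO replicate 6 in 8 (8.61%). Leaving out any single library kept the edgeR call of each of the 10 genes, as did leaving out both of these, a choice made after the data were seen. *Lmna* was then higher in iADKO, at a log2 fold change of 0.19 (edgeR adjusted p = 0.0344).

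The supply of cytosolic acetyl-CoA is the work of 4 of the genes. *Slc25a1* (ENSMUSG00000003528, minus strand of chromosome 16, 17743075 to 17746245 in GRCm39, the build of all coordinates here) encodes the carrier that moves citrate out of mitochondria. Its level ran from 258 to 698 CPM in fl/fl (median 581) and from 166 to 329 CPM in iADKO (median 186). Only iADKO replicate 6 reached above fl/fl replicate 5. Means were 558 ± 143 CPM in fl/fl (SD, n = 7) and 206 ± 61.1 CPM in iADKO (SD, n = 6). The log2 fold change was -1.44 (SE 0.218, edgeR adjusted p = 0.000659).

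*Acly* (ENSMUSG00000020917, minus strand of chromosome 11, 100367165 to 100440756) encodes ATP citrate lyase, which splits cytosolic citrate into acetyl-CoA and oxaloacetate. It ran from 475 to 3682 CPM in fl/fl (median 2105) and from 509.7 to 808 CPM in iADKO (median 721). Of the 10 genes, *Acly* alone had fl/fl replicate 5 below every iADKO library, while the other 6 fl/fl libraries, from 1495 CPM upward, lay above all of them. *Acly* fell from 2127 ± 1025 CPM in fl/fl (SD, n = 7) to 682 ± 134 CPM in iADKO (SD, n = 6), with a log2 fold change of -1.64 (SE 0.347, edgeR adjusted p = 0.00403). Its coefficient of variation among fl/fl mice, 48.2%, was the highest of the 10 genes in that group.

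*Acss2* (ENSMUSG00000027605, plus strand of chromosome 2, 155355679 to 155428016) encodes the cytosolic and nuclear acetyl-CoA synthetase that activates acetate. It was at 133 to 766 CPM in fl/fl (median 567) and 102 to 216 CPM in iADKO (median 119.6). The iADKO libraries other than replicate 6 sat between 102 and 125 CPM, below all fl/fl libraries. The means of 544 ± 210 CPM in fl/fl (SD, n = 7) and 133 ± 41.4 CPM in iADKO (SD, n = 6) gave a log2 fold change of -2.04 (SE 0.334, edgeR adjusted p = 0.00116).

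*Aacs* (ENSMUSG00000029482, plus strand of chromosome 5, 125552860 to 125595829) encodes acetoacetyl-CoA synthetase, which returns the carbon of a ketone body to lipid synthesis. It ran from 288 to 562 CPM in fl/fl (median 483) and from 169 to 251 CPM in iADKO (median 204), with no overlap. The fall from 468 ± 88.8 CPM in fl/fl (SD, n = 7) to 211 ± 34.6 CPM in iADKO (SD, n = 6), or -1.15 on the log2 scale (SE 0.143, edgeR adjusted p = 0.000263), was the smallest of the 10.

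The carboxylation of acetyl-CoA to malonyl-CoA, the committing step, is encoded by *Acaca* and *Acacb*. The ACC1 enzyme of *Acaca* (ENSMUSG00000020532, plus strand of chromosome 11, 84020476 to 84292477) makes the cytosolic malonyl-CoA used for synthesis, whereas the ACC2 enzyme of *Acacb* (ENSMUSG00000042010, plus strand of chromosome 5, 114284307 to 114388822) sits at the mitochondrial outer membrane, where malonyl-CoA restrains fatty acid entry. *Acaca* was at 1304 to 3330.0 CPM in fl/fl (median 2835) and 613 to 1203 CPM in iADKO (median 690.3), and the groups did not overlap. Its means were 2707 ± 694 CPM in fl/fl (SD, n = 7) and 757 ± 223 CPM in iADKO (SD, n = 6), with a log2 fold change of -1.84 (SE 0.218, edgeR adjusted p = 0.0002). *Acacb* was at 214 to 538 CPM (median 397) and 96.5 to 218 CPM (median 119), and its groups met only at fl/fl replicate 5 and iADKO replicate 6. The means of *Acacb* were 386 ± 109 CPM in fl/fl (SD, n = 7) and 142 ± 50.9 CPM in iADKO (SD, n = 6), and its log2 fold change was -1.45 (SE 0.244, edgeR adjusted p = 0.00125).

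Fatty acid synthase, the dimeric enzyme that builds palmitate, is encoded by *Fasn* (ENSMUSG00000025153, minus strand of chromosome 11, 120696672 to 120715995). *Fasn* ran from 5914 to 22399 CPM in fl/fl (median 19480.2) and from 3251 to 6106 CPM in iADKO (median 4128). Fl/fl replicate 5 was below iADKO replicate 6 and above the other 5 iADKO libraries, and the next fl/fl library was at 15220.2 CPM. The log2 fold change of *Fasn* was -1.99 (SE 0.271, edgeR adjusted p = 0.000337), which left 25.2% of the fl/fl level. *Thrsp* (ENSMUSG00000035686, minus strand of chromosome 7, 97062139 to 97066937) encodes Spot 14, a small protein that responds to thyroid hormone and carbohydrate and is known as an activator of lipogenesis in adipose tissue and mammary gland. It was at 807 to 2682 CPM in fl/fl (median 1516) and 456 to 731 CPM in iADKO (median 637), with no overlap. Its means of 1630.0 ± 579 CPM in fl/fl (SD, n = 7) and 618 ± 103 CPM in iADKO (SD, n = 6) gave a log2 fold change of -1.40 (SE 0.218, edgeR adjusted p = 0.000704).

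*Me1* (ENSMUSG00000032418, minus strand of chromosome 9, 86462646 to 86578104) encodes cytosolic malic enzyme, which makes NADPH while turning malate into pyruvate. It ran from 466 to 2816 CPM in fl/fl (median 1852) and from 326 to 731 CPM in iADKO (median 437). Fl/fl replicate 5 lay below 3 iADKO libraries, and the next fl/fl library was at 1431 CPM. *Me1* fell from 1805 ± 750 CPM in fl/fl (SD, n = 7) to 469 ± 155 CPM in iADKO (SD, n = 6), which is -1.94 on the log2 scale (SE 0.340, edgeR adjusted p = 0.00153).

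*Elovl6* (ENSMUSG00000041220, plus strand of chromosome 3, 129326004 to 129432144) encodes the elongase that extends palmitate to stearate. It was at 155 to 792 CPM in fl/fl (median 575) and 61.1 to 178 CPM in iADKO (median 79.3), and its groups met only at fl/fl replicate 5 and iADKO replicate 6. Mean levels were 572 ± 224 CPM in fl/fl (SD, n = 7) and 94.5 ± 42.5 CPM in iADKO (SD, n = 6). Its log2 fold change was -2.60 (SE 0.368, edgeR adjusted p = 0.000573), and only 5 of the 16753 tested genes had a lower log2 fold change.

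Per length of the canonical transcript, the levels of the 10 genes spanned a wide range. In fl/fl, *Fasn* stood at 1616 ± 533 CPM per kb (SD, n = 7) and *Thrsp* at 1276 ± 453, followed by *Acly* (482), *Me1* (434), *Slc25a1* (304), *Acaca* (285), *Acss2* (181), *Aacs* (101), *Elovl6* (93.2) and *Acacb* (42.6). Neighbours in this order lay within their SDs of each other, apart from *Thrsp* and *Acly* and from *Elovl6* and *Acacb*. In iADKO, *Thrsp* stood at 484 ± 80.4 CPM per kb (SD, n = 6) and *Fasn* at 406.5 ± 96.0, with overlapping SDs. *Elovl6* was then lowest at 15.4 CPM per kb, beside *Acacb* at 15.6. Among the 16681 tested genes with a transcript length, *Fasn* had rank 17 by mean CPM per kb in fl/fl and rank 82 in iADKO, and *Elovl6* had ranks 599 and 4258.

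The 250 bases before the start of each canonical transcript were searched on both strands of GRCm39 for letters bound by known regulators of these genes. The sterol regulatory element, which SREBP factors bind, was written as TCACNCCAC and occurred in 3 of the 10 windows (*Acss2*, *Acaca* and *Fasn*) and in 1.12% of the windows of 21757 protein-coding genes. The palindromic E-box CACGTG, which SREBP-1, USF and ChREBP factors can bind, occurred in 2 of 10 (*Slc25a1* and *Acaca*) and in 6.26% of all windows. The NF-Y box CCAAT occurred in 1 of 10 (*Fasn*) and 36.5%, and the GC box GGGCGG in 3 of 10 (*Acly*, *Acss2* and *Fasn*) and 36.3%. The windows of *Aacs*, *Acacb*, *Me1*, *Thrsp* and *Elovl6* held none of these motifs. These genes also fell, with log2 fold changes of -1.15, -1.45, -1.94, -1.40 and -2.60. The part of the matched letters in the decrease was not tested. Each printed match is read 5′ to 3′ on the gene's strand with the matched letters in capitals, and no pair of printed motifs overlaps.
Slc25a1 E-box, chr16:17746307-17746332, 77 bases before the start: gctccagacgCACGTGtctctaaact
Acss2 sterol element, chr2:155359619-155359647, 239 bases before the start: cctaacttggTCACTCCACagccttgcct
Acss2 sterol element, chr2:155359672-155359700, 186 bases before the start: ctacaccccaTCACTCCACgggcccgcct
Acaca sterol element, chr11:84063840-84063868, 98 bases before the start: acaggcacacTCACACCACaccctgggtg
Fasn sterol element, chr11:120715063-120715091, 146 bases before the start: cgcgcgggcaTCACCCCACcggcggcggc
Fasn NF-Y box on the other strand, chr11:120715016-120715040, 95 bases before the start: cccgacgctcATTGGcctgggcggc
The pair in *Acss2* share all 9 letters of the element. *Acaca* is transcribed from more than 1 start, its E-box lies in a CA repeat, and its printed sterol element sits at the end of the same CA-rich stretch. The windows of *Acss2*, *Fasn* and *Elovl6* also lie in exons of other annotated transcripts. A match is a description of these letters and says nothing of binding in these mice.

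The genes of the transcription factors were compared over a list of 13 lipogenic regulators, with a median log2 fold change of -0.08. Of these, 6 fell (46.2%, against 16.3% of all tested genes) and 2 rose (15.4%, against 14.1%). *Srebf1*, which encodes SREBP-1, fell by 0.86 on the log2 scale (SE 0.119, edgeR adjusted p = 0.000379), and *Mlxipl*, which encodes ChREBP, fell by 0.98 (SE 0.125, adjusted p = 0.000273). *Insig1*, a sterol-regulated anchor of SCAP and itself a known SREBP target, had the lowest log2 fold change of the list at -1.45 (adjusted p = 0.000643). *Usf1* had the highest, 0.27 (SE 0.0595, adjusted p = 0.00474). Counts were also scaled to the adipocyte markers, a choice made after the data were seen. The median log2 fold change of all genes was then 0.98. In that fit *Srebf1* was at 0.12 (edgeR adjusted p = 0.523) and *Mlxipl* at -0.02 (adjusted p = 0.914).

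Paralogs of the 10 genes were called in both directions, as were tested genes at large. Of 11 listed, 9 were tested, and 2 were lower and 2 higher. That is 22.2% each, against 16.3% lower and 14.1% higher of all tested genes. Their median log2 fold change was -0.19. *Acss3*, a mitochondrial relative of *Acss2*, fell from 176 to 79.0 CPM (log2 fold change -1.16, SE 0.132, edgeR adjusted p = 0.000168), and the elongase gene *Elovl5*, which acts on polyunsaturated chains, fell by 0.34 (adjusted p = 0.00433). The mitochondrial acetate-activating *Acss1* rose by 0.23 (SE 0.0631, adjusted p = 0.0143), and *Elovl1*, an elongase for saturated very long chains, rose by 0.36 (SE 0.0575, adjusted p = 0.000786). *Elovl1* was higher in every iADKO library than in every fl/fl library, which held for 2.71% of tested genes. With counts scaled to the adipocyte markers, *Elovl5* was at 0.62, below the median of 0.98 over all genes in that fit. The others did not pass the test. Their log2 fold changes were -0.05 for *Me2*, -0.19 for *Me3*, -0.32 for *Mid1ip1*, -1.29 for *Elovl3* (SE 0.527, adjusted p = 0.0786) and 0.14 for *Elovl7*. *Elovl2* and *Elovl4*, with 69 and 135 counts over all libraries, were not tested.

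Because a ratio of a pair of genes within a library does not depend on its depth, 4 such ratios were compared. A ratio is not free of the cell makeup of the tissue, whose part in these differences was not tested. For scale, the mean log2 CPM of the adipocyte markers was 0.94 lower in iADKO. Each ratio was tested by the two-sided exact permutation test over all assignments of 13 libraries to 7 and 6. The log2 ratio of *Acss2* to *Acss1* fell from 4.46 ± 0.903 (SD, n = 7) to 2.31 ± 0.375 (SD, n = 6), a difference of -2.15 (exact permutation p = 0.00175, 0.0035 adjusted over the 4 ratios). The 6 other fl/fl libraries were between 4.35 and 5.12 and replicate 5 was at 2.50, below iADKO replicate 6 at 3.07 and above the other iADKO libraries. The log2 ratio of *Thrsp* to *Mid1ip1*, whose product is a relative of Spot 14 that binds ACC, fell from 4.13 ± 0.368 to 3.09 ± 0.528, a difference of -1.04 (exact permutation p = 0.00175, adjusted p = 0.0035). Within the pair of ACC genes, the log2 ratio of *Acaca* to *Acacb* fell from 2.81 ± 0.196 to 2.45 ± 0.320, a difference of -0.36 (exact permutation p = 0.0128, adjusted p = 0.0128). The log2 ratio of *Acly* to *Acss2* instead rose, from 1.92 ± 0.182 to 2.38 ± 0.341, a difference of 0.46 (exact permutation p = 0.0117, adjusted p = 0.0128).

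**Figure D2:**
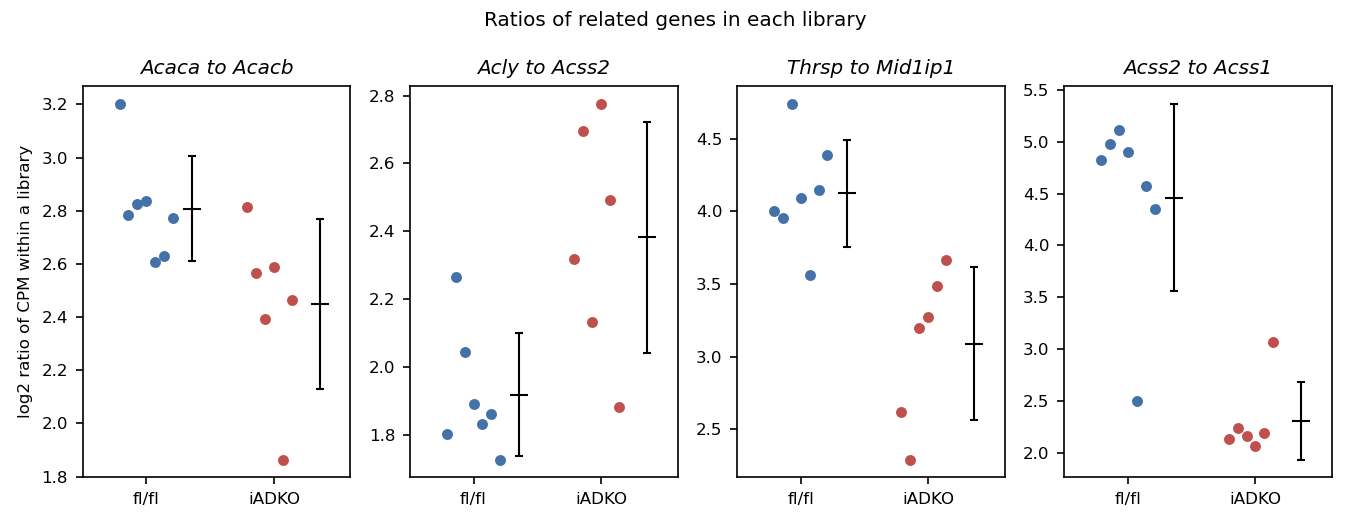
Log2 ratio of the CPM of 4 pairs of genes in each fl/fl (blue) and iADKO (red) library, 1 point per mouse, with the mean ± SD of each group in black; the axes do not start at 0. The Acss2 to Acss1 ratio of fl/fl replicate 5 (2.50) lies among the iADKO libraries, and the groups overlap in all 4 panels.

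The groups overlapped in all 4 ratios. Library numbers fall into runs, of which only 2 hold both labels, and the mean of the within-run differences was 0.47 for *Acly* to *Acss2* and -0.22 for *Acaca* to *Acacb*, neither past the threshold (permutation p = 0.0667 and 0.133, 9 libraries).

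Other steps around fatty acid synthesis were read against the 16.3% of tested genes that were lower. The adipocyte markers, for comparison, had a median log2 fold change of -0.95. All 12 genes from pyruvate to citrate fell, with a median log2 fold change of -0.65 and a range from -1.39 for *Pcx*, pyruvate carboxylase, to -0.29 for *Slc25a11*, the oxoglutarate carrier. Of 8 genes for cytosolic NADPH, 6 fell and the median was -0.63. *Tkt*, the transketolase of the pentose phosphate pathway, was lowest at -1.63 (SE 0.234, edgeR adjusted p = 0.000468), and *Rpia* was at -0.10 (adjusted p = 0.503). *G6pdx* and *Pgd*, whose enzymes make NADPH in that pathway, had log2 fold changes of -0.98 and -0.85, and *Me1* one of -1.94. In mitochondrial fatty acid synthesis, a separate pathway that serves lipoate and respiratory chain assembly, 6 of 8 tested genes fell (median -0.54), from *Mecr* at -0.99 to *Oxsm* at -0.19.

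Downstream, 6 of 11 genes of desaturation and elongation fell and 0 rose, with a median of -0.48. *Scd1*, the desaturase that acts on the stearate made by ELOVL6, had the lowest log2 fold change at -2.30, next to *Elovl6* at -2.60, and *Fads2* the highest at 0.01. Of 11 genes of triglyceride assembly, 9 fell and 1 rose, with a median of -0.87. *Agpat2*, an acyltransferase of adipocyte triglyceride synthesis, was lowest at -1.31 (SE 0.173, edgeR adjusted p = 0.000311), and *Lpin2* rose by 0.42 (adjusted p = 0.00158). Of the 9 tested genes for AMPK subunits and malonyl-CoA control, which restrain the ACC enzymes and clear their product, 3 fell and 1 rose (median -0.25). *Mlycd*, malonyl-CoA decarboxylase, fell by 0.57 (adjusted p = 0.000865) and *Prkab1* rose by 0.24 (adjusted p = 0.00789). Scaled to the adipocyte markers, *Slc25a11* was at 0.67 and *Mlycd* at 0.38, both below the median of 0.98 over all genes in that fit.

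**Figure D3:**
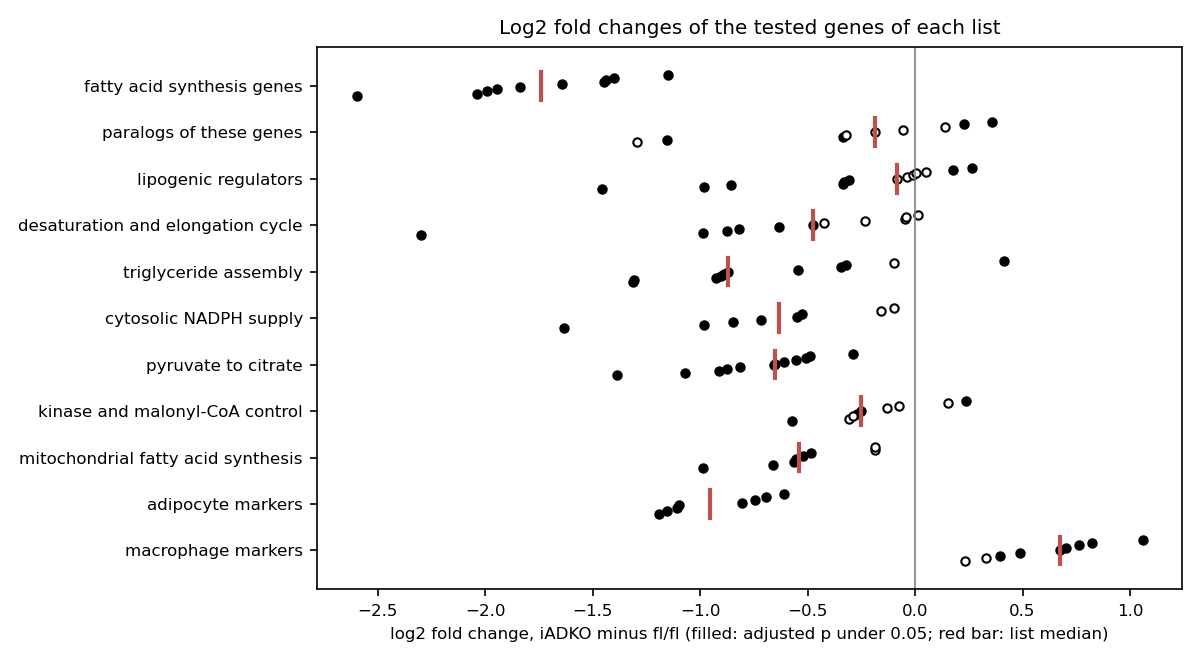
Log2 fold change (iADKO minus fl/fl) of each tested gene in the list of 10, in 8 further pathway lists and in 2 marker lists; filled points have an edgeR adjusted p under 0.05 and red bars are list medians. The 10 genes lie between -2.60 and -1.15, left of the adipocyte markers' median of -0.95, while the macrophage markers' median is 0.67.

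Markers of cell types and measures of the libraries moved with the 10 genes. All 8 adipocyte markers fell, with a median log2 fold change of -0.95, and their mean log2 CPM was 0.94 lower in iADKO. Of 9 macrophage markers 7 rose (median 0.67), and their summed level ran from 1242 to 2375 CPM in fl/fl and from 1650.4 to 2833 CPM in iADKO. Of 8 T and B cell markers 3 rose, of 6 endothelial markers 2 fell, of 5 brown adipocyte markers 3 fell, and of the progenitor, mesothelial and skeletal muscle markers 0 of 6, 0 of 5 and 0 of 5 passed. Of 4 tested gland epithelium markers 2 rose (*Krt8* and *Krt18*), with a sum of 11.1 to 32.0 CPM in fl/fl and of 21.4 to 136 CPM in iADKO. The 136 CPM are those of iADKO replicate 6, and the other 5 iADKO libraries reached 50.5 CPM. Without that library 0 of the 4 passed. The log2 fold changes were then 0.62 for *Krt8* and 0.67 for *Krt18*, in place of 1.12 and 1.44. Without fl/fl replicate 5 they were at 1.16 and 1.43, and neither passed (edgeR adjusted p = 0.051 and 0.0635). *Epcam* alone of the 4 passed in that fit, at 1.30 (edgeR adjusted p = 0.0446). Without both of these libraries together, 8 of 9 macrophage, 2 of 6 progenitor and 2 of 5 mesothelial markers rose, and 5 of 5 brown adipocyte markers fell. The T and B cell, endothelial and skeletal muscle counts stayed at 3, 2 and 0. Calls over all genes also grew in that fit. Of 16769 tested genes 3910 were lower and 3282 higher, against 2737 and 2367 of 16753 with all libraries. The milk genes *Csn3* and *Lalba* had 3 and 12 counts over all libraries. Mitochondrially encoded genes took 2.84% to 5.07% of each fl/fl library and 2.39% to 3.99% of each iADKO library, with fl/fl replicate 5 at the low and iADKO replicate 6 at the high end of its group. The 10 genes with the most counts in a library took 9.54% to 14.3% and 6.51% to 9.12%, and TMM factors ran from 0.892 to 1.02 in fl/fl but from 1.05 to 1.10 in iADKO, so neither measure overlapped. The part of these measures in the decrease was not tested. In whole tissue, fewer adipocytes and less RNA per adipocyte cannot be told apart.

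**Figure D4:**
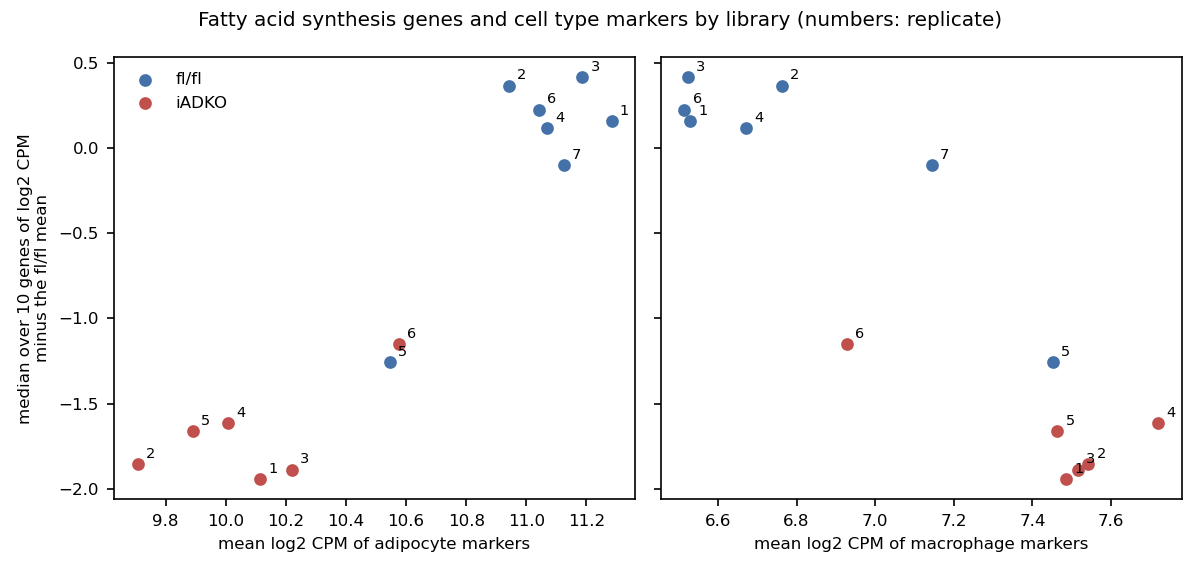
Median over the 10 genes of log2 CPM minus the fl/fl mean (vertical axis) against the mean log2 CPM of 8 adipocyte markers (left) and 9 macrophage markers (right), 1 point per library with its replicate number, fl/fl in blue and iADKO in red. Fl/fl replicate 5 (-1.26) and iADKO replicate 6 (-1.15) lie side by side on the vertical axis, between the remaining libraries of the 2 labels.

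Scaling to the adipocyte markers in place of TMM, a choice made after the data were seen, moved the median log2 fold change of all genes to 0.98. The 10 genes were still at negative log2 fold changes with a median of -0.76, and 7 passed the test as lower. Over the whole table, that fit called 68 genes lower and 15211 higher. *Elovl6* was then at -1.65 (edgeR adjusted p = 4.62e-05), *Acss2* at -1.07, *Me1* at -0.96 and *Acaca* at -0.90. The 3 that did not pass were *Acly* at -0.63 (adjusted p = 0.0782), *Thrsp* at -0.42 (adjusted p = 0.0681) and *Aacs* at -0.18 (adjusted p = 0.246). With the macrophage marker score as a covariate, 5 of the 10 passed (*Slc25a1*, *Aacs*, *Acaca*, *Fasn* and *Elovl6*) and the median was -0.85, while 252 genes of the whole table were called lower. With the adipocyte marker score as a covariate, 0 of the 10 passed and 2 had an unadjusted p under 0.05. The log2 fold changes of the 10 were then -1.06 to -0.27. That fit left 19 lower and 18 higher genes in the whole table, with 2150 genes at an unadjusted p under 0.05. The part of cell composition in the decrease was not tested beyond these values.

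**Figure D5:**
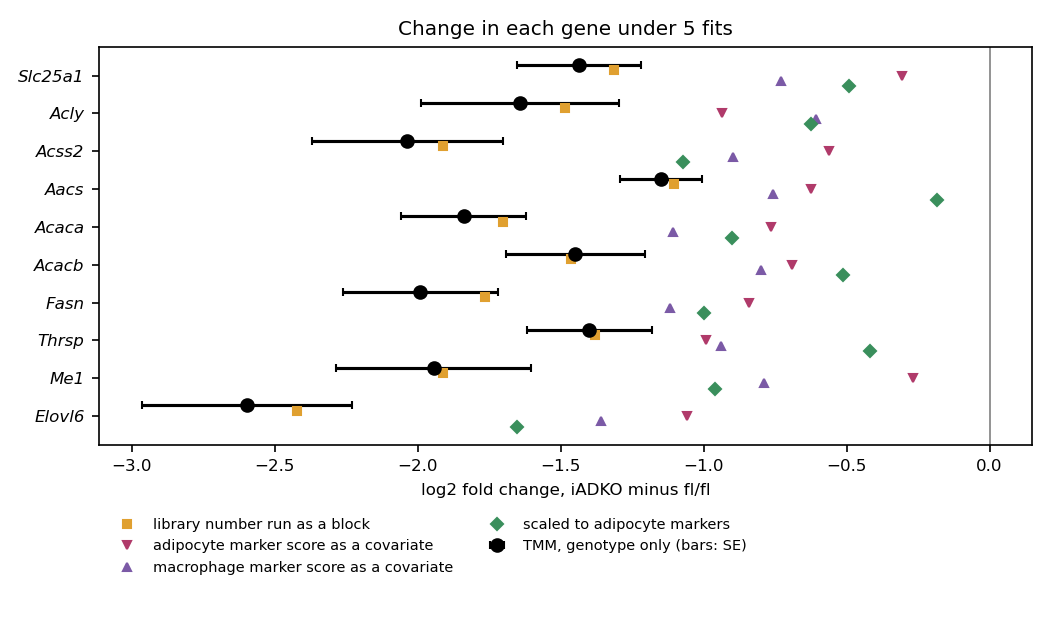
Log2 fold change (iADKO minus fl/fl) of each of the 10 genes in the TMM fit with genotype alone (black, bars are SE) and in 4 other fits. Points move toward 0 with a marker score in the model or as the scale (medians -0.85, -0.73 and -0.76 against -1.74), and all stay below 0.

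Within the runs of library numbers, all 10 genes were lower in iADKO. In the run with 3 fl/fl and 2 iADKO libraries the groups were apart in 10 of 10 genes, as were 27.9% of all tested genes in that direction, and the median difference in log2 CPM was -2.19, against 0.03 for all tested genes. In the run with 2 of each, where fl/fl replicate 5 and iADKO replicate 6 both fall, the groups were apart in 3 genes, against 16.4% of all tested genes, and the median was -0.75, against 0.0061. Differences there ran from -1.32 for *Elovl6* to -0.34 for *Acly*. With the run as a block in edgeR, 9 of the 10 passed, and *Acly* had an adjusted p of 0.0563. Over the whole table, that fit called 1202 genes lower and 784 higher. Scaling by library size alone moved the median log2 fold change of all genes to 0.24 and the split to 1276 lower and 7397 higher genes, and the 10 genes were then at a median of -1.53, all of them called lower.

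The 10 genes also varied together among mice of 1 label. After each label's mean was subtracted from log2 CPM, the correlation of a gene with the mean of the other 9 over 13 libraries ran from 0.772 for *Acacb* to 0.974 for *Acss2*. Without fl/fl replicate 5 and iADKO replicate 6 it ran from 0.464 for *Slc25a1* to 0.841 for *Acly* over 11 libraries. Among other genes, those whose residuals were most like the mean of the 10 were *Pdhb* (0.970), a subunit of pyruvate dehydrogenase, *Pmvk* (0.955) and *Nsdhl* (0.950) of cholesterol synthesis, the RNA helicase gene *Ddx27* (0.948) and *Cisd3* (0.947), an iron-sulfur protein of mitochondria. Without the same pair of libraries these values were 0.759, 0.703, 0.680, 0.600 and 0.536. The values share libraries and their cell makeup, are not set beside those of tested genes at large and are given as a description.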

How the data were processed

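Strand-specific mRNA libraries of whole pmWAT from 13 female mice were sequenced in pairs of 100 bases and, per the labels and the study's methods, checked with FastQC 0.12.1, aligned with STAR 2.7.11a to mm39 and analysed with DESeq2. The counting tool and annotation are not given in the sources used here. The authors deposited raw counts per gene for 33618 genes and the log2 values of DESeq2's regularized log made from the counts. Genotypes came from the labels. Each library is a different mouse, and total counts were 18854223 to 19776491. Intervals from counts alone would cover counting error only and are not given.

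In R 4.3.3, edgeR 4.0.16's filterByExpr left 16753 genes, which were normalized by TMM and compared by the robust quasi-likelihood test with Benjamini-Hochberg adjustment (threshold 0.05). Log2 CPM used a prior count of 2. Each SE is the absolute log2 fold change divided by the root of the F statistic. Cell type scores are mean log2 CPM of marker genes. GENCODE vM39, on GRCm39, matched 33184 identifiers and gave coordinates and transcript lengths. On simulated counts for this comparison (16753 genes), edgeR called 77.0% of genes changed by 1 on the log2 scale, 57.0% of those changed by 0.5 and 0.0362% of unchanged genes. The simulation drew each gene independently, changed 100 genes at each size and had no library lying toward the other label. Its rates need not hold in these data.

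Alternatives were DESeq2's size factors, library size alone, TMM without the 10 genes, *Scd1* and mitochondrially encoded genes, the DESeq2 1.42.0 Wald test, no filter, at least 10 counts in every sample, a replicate block, a library number run block, adipocyte or macrophage score covariates, limma 3.58.1 on the deposited log2 values and each library left out. For the ratios they were a prior count of 0.5, replicate pairs, differences within runs and each library left out. Scaling to adipocyte markers and leaving out fl/fl replicate 5 and iADKO replicate 6 together were added later. The 10 genes and all lists were chosen with earlier results of these data known. Named genes are the 10, *Lmna*, all paralogs, *Scd1*, *Srebf1*, *Mlxipl*, the highest and lowest log2 fold change of each pathway list, and the 5 most alike other genes. *G6pdx* and *Pgd* were named after their values were seen. Other markers named were in the marker lists. All libraries carry 1 batch label. The runs are read from library numbers and are not a labelled batch.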

Additional observations from a re-analysis of the deposited data

Results flagged for a closer look

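Of 54 groups of values tested for a library far from the rest, 14 had one, where chance gives about 1 in 20. In the gap between the extreme library and its nearest neighbour, iADKO replicate 6 stood above the other iADKO libraries in *Slc25a1* (329 CPM, others 166 to 195), *Acss2* (216 CPM, others 102 to 125), *Acaca* (1203 CPM, others 613 to 725) and *Elovl6* (178 CPM, others 61.1 to 96.2). It did so too in *Acss3* (115 CPM), *Scd1* (17639 CPM) and the log2 ratio of *Acss2* to *Acss1* (3.07). Fl/fl replicate 5 stood below the other fl/fl libraries in *Slc25a1* (258 CPM, others 544 to 698), *Scd1* (24443 CPM, others 41124 to 48087) and the log2 ratio of *Acss2* to *Acss1* (2.50). The remaining values were those of *Mid1ip1* in fl/fl replicate 2 (173 CPM) and iADKO replicate 2 (121 CPM), *Me3* in fl/fl replicate 4 (11.8 CPM), and the log2 ratio of *Acaca* to *Acacb* in fl/fl replicate 1 (3.20), each the highest of its group.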

How the results depend on the processing

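All 10 genes were called lower under each alternative run except the run block (9), the macrophage covariate (5), the adipocyte covariate (0) and scaling to adipocyte markers (7, added after the data were seen); their direction held in every fit. Over all genes, the counts lower and higher, 2737 and 2367 in the reported fit, were 1276 and 7397 with library size alone, 1202 and 784 with the run block, 252 and 184 with the macrophage covariate, 19 and 18 with the adipocyte covariate, and 68 and 15211 with scaling to adipocyte markers. The cause was not tested. Leaving out each library in turn gave 10 to 10 of the genes, 2216 to 3285 lower and 1769 to 3319 higher genes. Without fl/fl replicate 5 and iADKO replicate 6 together, 3910 genes were lower and 3282 higher, and the median log2 fold change of the 10 genes was -2.02. The number is shared but the residual correlation of same-numbered libraries passed 0.1 in only 3 of 6 pairs, and 2 of 6 iADKO and 3 of 6 fl/fl libraries correlated best with their own number. The replicate block, without fl/fl replicate 7, called the 10 genes, 2454 lower and 2379 higher, and pairs 1 to 6 gave ratio differences of -0.37 (*Acaca* to *Acacb*), 0.43 (*Acly* to *Acss2*), -0.99 (*Thrsp* to *Mid1ip1*) and -2.17 (*Acss2* to *Acss1*), each with exact permutation p = 0.03125, the smallest 6 pairs allow.

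With libraries left out, in the same order, the ratio differences were -0.43 to -0.24, 0.39 to 0.57, -1.15 to -0.88 and -2.48 to -2.04; within runs they were -0.22 (p = 0.133, exact permutation), 0.47 (p = 0.0667), -1.07 and -1.96. Some other named genes changed sign. Scaling to adipocyte markers, which raised the median of all genes to 0.98, gave 0.91 for *Me2*, 0.77 for *Me3*, 0.69 for *Mid1ip1*, 0.62 for *Elovl5*, 0.12 for *Srebf1*, 0.86 for *Rpia*, 0.67 for *Slc25a11*, 0.38 for *Mlycd*, 0.78 for *Oxsm*, 0.055 for *Pdhb*, 0.73 for *Ddx27* and 0.17 for *Cisd3*. Library size alone gave 0.15 for *Me2*, 0.012 for *Me3*, 0.11 for *Rpia* and 0.022 for *Oxsm*. The adipocyte covariate gave -0.17 for *Fads2*, 0.037 for *Slc25a11*, 0.27 for *Oxsm* and 0.090 for *Ddx27*, the macrophage covariate 0.062 for *Rpia* and 0.062 for *Oxsm*, and the run block -0.37 for *Elovl7* and -0.029 for *Fads2*. *Fads2* was also at -0.0022 with DESeq2's size factors and with its Wald test, -0.00058 with no filter, -0.00070 with limma, -0.035 with the replicate block and -0.026 without fl/fl replicate 5 and iADKO replicate 6 together. With each library left out in turn, *Fads2* ran from -0.036 to 0.069, *Me3* from -0.29 to 0.023 and *Elovl7* from -0.23 to 0.35.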
